A study of Mus musculus with 22 samples.

Results

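The hypoxia response genes described here are 10 genes of the mouse kidney: the oxygen-sensitive transcription factor subunits Hif1a and Epas1, the prolyl hydroxylases Egln1 and Egln3, and the target genes Vegfa, Epo, Pfkfb3, Bnip3, Car9, and Ankrd37. They were looked up by symbol, and all 10 were found among the 32858 genes of the count table. Kidneys of 22 male C57Bl6/J mice aged 8 to 10 weeks were profiled by RNA-Seq of polyadenylated RNA, with 1 library per mouse. The vehicle group (n = 5) received the drug-free carrier, and the KW6002 group (n = 6) received KW6002 (istradefylline, an adenosine receptor antagonist) at 3 mg/kg daily from day -5 to day 7. The cisplatin group (n = 5) received 6 daily injections of cisplatin, a DNA-damaging platinum drug that injures the kidney tubule, at 3 mg/kg, and the co-treated group (n = 6) received cisplatin and KW6002 on the same schedules. Kidneys were taken 72 hours after the last cisplatin injection, at a single time point, from mice without tumors, and the comparisons ask what each drug, and KW6002 on top of cisplatin, changed in kidney RNA.

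Cells sense oxygen through hypoxia-inducible factor (HIF), a dimer of an unstable alpha subunit (HIF-1α from Hif1a, HIF-2α from Epas1) with a stable partner from Arnt. With oxygen present, the EGLN enzymes hydroxylate the alpha subunit, the VHL ubiquitin ligase binds it, and it is degraded, so HIF activity is set largely by protein stability and need not follow the RNA of the subunits. In hypoxia HIF binds a short core sequence near its target genes, among which Egln3 and, in many cells, Egln1 act as feedback. In the kidney, HIF-1α is known mainly from tubule cells and HIF-2α from endothelial and interstitial cells, and interstitial fibroblasts near the corticomedullary border make erythropoietin.

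The core letters that HIF binds, ACGTG or GCGTG, were looked for on both strands of 300-base windows around the RefSeq gene starts (build GRCm38.p6, 250 bases before to 50 after). A window was given for 9 of the 10 genes, and 10 of their 11 windows held a match, at least 1 for each of the 9 genes. Over all 32851 windows, 43.8% held a match (ACGTG 19.6%, GCGTG 32.4%), so such a match is common and is a description, not a site. For Vegfa the window just before the annotated gene (chr17:46032378-46032627, minus strand) held none of these letters. Its matches were in a window inside the gene (chr17:46025164-46025413). The stretch before Bnip3, which encodes a mitophagy receptor, is shown because it held several matches close together, at chr7:138909520-138909756 on the minus strand and ending where the annotated gene begins. Stretches of 30 bases are shown for a pair of genes that were higher in cisplatin-treated kidneys, Egln3 (chr12:54204086-54204115, minus strand) and Pfkfb3 (chr2:11553972-11554001, minus strand), and a pair that were lower, Car9 (chr4:43506996-43507025, plus strand) and Ankrd37 (chr8:45999851-45999880, minus strand). Capitals mark ACGTG or GCGTG or their reverse complements CACGT and CACGC, and the run CACGTG is both ACGTG and its reverse complement and is also the E-box of other factors.
Bnip3: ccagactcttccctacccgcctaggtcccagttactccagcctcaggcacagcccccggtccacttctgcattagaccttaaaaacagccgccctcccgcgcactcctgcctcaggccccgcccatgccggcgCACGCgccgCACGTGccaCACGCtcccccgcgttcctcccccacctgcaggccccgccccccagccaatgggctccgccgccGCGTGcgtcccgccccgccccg
Egln3: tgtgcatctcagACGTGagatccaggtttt
Pfkfb3: ctccgcgccgtgACGTGccaagctgtgacc
Car9: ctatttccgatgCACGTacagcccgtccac
Ankrd37: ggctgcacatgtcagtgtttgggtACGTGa
The same letters thus stood in windows around the starts of genes that were higher and of genes that were lower after cisplatin. The stretches of Bnip3 and Egln3 lie before the annotated gene (GENCODE), and those of Pfkfb3, Car9, and Ankrd37 lie inside it.

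Library totals ran from 26471762 to 40510754 counts (median 32721214.5), and 17131 genes had enough counts to be tested. Values below are CPM, reads scaled to the TMM-normalized total of the library, log2 fold changes are from edgeR's quasi-likelihood fit over all 4 groups with their standard error (SE), and adjusted p-values are Benjamini-Hochberg values over all tested genes. A gene passed the test at an adjusted p below 0.05. The minimum for testing was reached by 9 of the genes in libraries of every group, but by Ankrd37 in only 2 of the 5 cisplatin libraries. Epo reached it in 5 vehicle and 6 KW6002 libraries and in no cisplatin-treated or co-treated library. Thus Epo was tested only through the groups in which it was high.

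In vehicle-treated kidneys Vegfa had the highest level per kilobase of annotated exon, 92.4 ± 5.73 CPM per kb (SD, n = 5), followed by Epas1 at 36.5 ± 3.41. Bnip3 (22.4 ± 2.82), Egln1 (21.3 ± 0.751), and Hif1a (18.1 ± 1.20) came next, and the range of Bnip3 overlapped those of Egln1 and Hif1a. Car9 (7.98 ± 2.02), Egln3 (7.61 ± 0.861), and Pfkfb3 (7.52 ± 2.09) had overlapping ranges, as did Epo (1.18 ± 0.423) and Ankrd37 (0.806 ± 0.181), which were lowest. After cisplatin Epas1 was highest at 53.0 ± 4.24 CPM per kb (n = 5), above Bnip3 at 42.75 ± 6.19, whose range overlapped that of Epas1, and Vegfa at 37.0 ± 3.49.

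**Figure D1:**
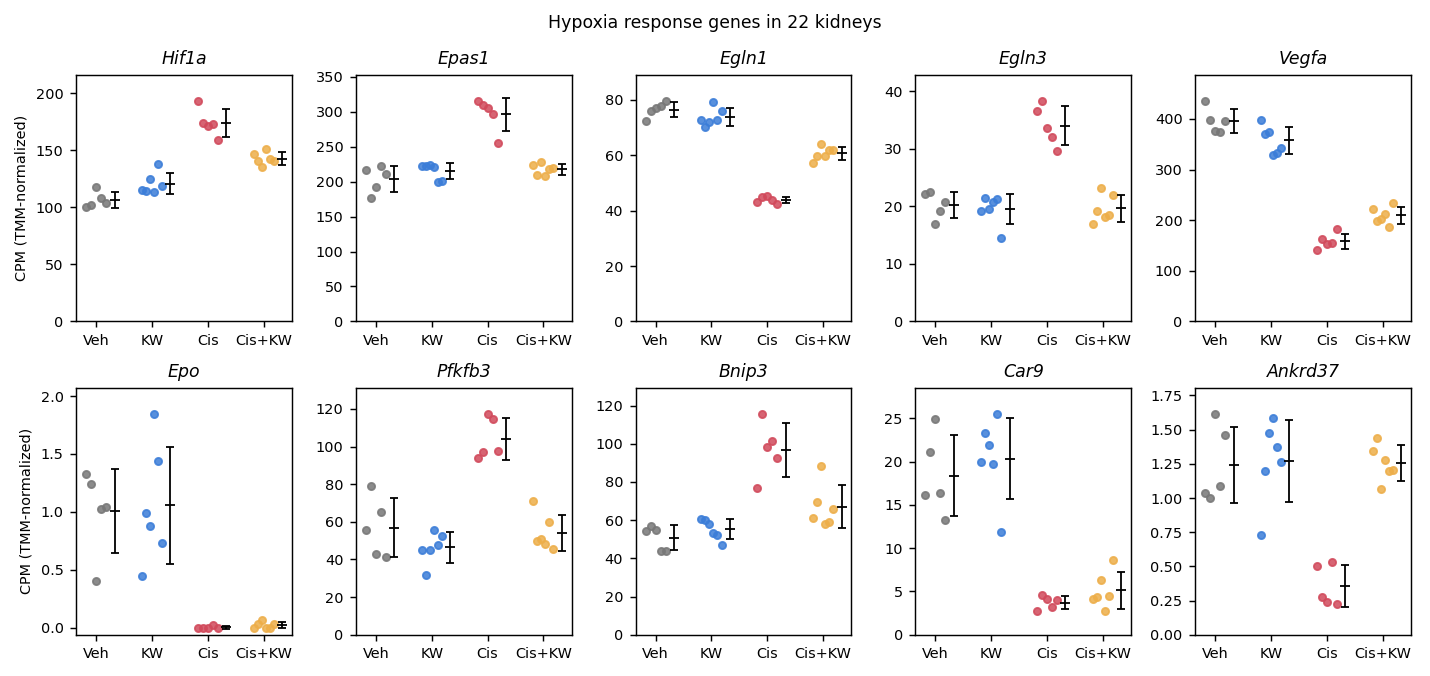
CPM of the 10 genes (y axis, linear, TMM-normalized) in each mouse of the vehicle (Veh, n = 5), KW6002 (KW, n = 6), cisplatin (Cis, n = 5), and cisplatin plus KW6002 (Cis+KW, n = 6) groups, with the mean and SD in black. Vegfa, Egln1, Epo, Car9, and Ankrd37 were lower and Hif1a, Epas1, Egln3, Pfkfb3, and Bnip3 were higher in every cisplatin-treated mouse than in any vehicle-treated mouse.

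Compared with vehicle-treated mice, cisplatin-treated mice had more RNA of both HIF alpha subunits, of Egln3, of Pfkfb3, and of Bnip3, and less RNA of Vegfa, Egln1, Car9, Ankrd37, and Epo. Of the 10 genes, 5 were higher and 5 lower at an adjusted p below 0.05, where 34.6% of all tested genes were higher and 35.9% lower. Without Epo, 5 rose and 4 fell. Under the study's stricter rule, which asks for an adjusted p below 0.01 together with a log2 fold change larger than 1 either way, 4 were lower (Vegfa, Epo, Car9, and Ankrd37; 3 without Epo) and 0 higher, against 12.1% lower and 12.1% higher of all genes. The CPM of the groups did not overlap for 10 of 10 genes, and 55.3% of all tested genes had groups that did not overlap. The 10 include Epo, which was tested only through the groups in which it was high. The median log2 fold change of the 10 genes was -0.13, beside -0.01 for all genes. In whole-kidney RNA, fewer cells of a type and less RNA per cell cannot be told apart.

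Hif1a encodes the subunit of HIF-1 that drives glycolytic genes. Its CPM was 100.9, 102.0, 118.2, 108.7, and 104.2 in the vehicle-treated mice and 193.4, 173.9, 171.8, 173.0, and 159.2 in the cisplatin-treated mice. Co-treated mice had 135.3 at lowest, 141.8 at the median, and 151.3 at highest, and KW6002-treated mice 113.8, 117.0, and 137.9. Every co-treated mouse thus stood above every vehicle-treated mouse and below every cisplatin-treated mouse. Hif1a rose with cisplatin (log2 fold change 0.71, SE 0.06, adjusted p = 3.0e-10), was lower in co-treated than in cisplatin-treated mice (-0.29, SE 0.06, adjusted p = 0.00015), and remained above vehicle (0.42, SE 0.06, adjusted p = 1.2e-06). Exons of Hif1a overlap those of the antisense gene Gm15283.

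Epas1, the HIF-2α gene, had a CPM of 215.9, 176.1, 192.7, 222.7, and 211.5 in vehicle-treated and of 315.2, 309.8, 304.6, 296.8, and 255.8 in cisplatin-treated mice. In co-treated mice its lowest, median, and highest CPM were 207.9, 218.2, and 228.2, and in KW6002-treated mice 200, 221.6, and 223.4. The co-treated mice lay below every cisplatin-treated mouse and within or just above the range of vehicle. Epas1 rose with cisplatin (0.54, SE 0.06, adjusted p = 8.4e-08) and was lower with co-treatment than with cisplatin (-0.45, SE 0.06, adjusted p = 1.7e-06). Its difference between co-treated and vehicle-treated mice did not pass the test (0.09, 95% interval -0.03 to 0.22, adjusted p = 0.187), but did when libraries were scaled by total counts only (0.25, adjusted p = 0.00124). Under that scaling the median of all genes moved to 0.16 in this comparison and to 0.20 in cisplatin against vehicle. The 6 endothelial markers, summed, were at 395.7 to 449.8 CPM in vehicle-treated, 451.3 to 633.9 in cisplatin-treated, and 405.8 to 455.4 in co-treated mice. With cisplatin 2 of these markers rose (Eng and Pecam1), 2 fell (Tek and Tie1), and 2 did not pass, and Eng alone went from a mean of 113.2 to 239.3 CPM. Their part in the Epas1 values was not tested.

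The prolyl hydroxylases moved in opposite directions. Egln1, which encodes the main oxygen-dependent regulator of HIF in most cells, had a CPM of 72.3, 75.9, 76.9, 77.6, and 79.6 in vehicle-treated and of 43.2, 45.0, 45.2, 43.7, and 42.5 in cisplatin-treated mice. Co-treated mice had 57.2 at lowest, 60.8 at the median, and 64.0 at highest, and KW6002-treated mice 70.3, 72.9, and 79.3. Replicates of Egln1 lay close together, and the 3 levels of vehicle, co-treatment, and cisplatin did not overlap. Egln1 fell by 0.80 on the log2 scale with cisplatin (SE 0.04, adjusted p = 6.4e-14), was higher with co-treatment than with cisplatin (0.47, SE 0.04, adjusted p = 1.4e-09), and stayed below vehicle (-0.33, SE 0.04, adjusted p = 1.5e-07).

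Egln3, an inducible hydroxylase and HIF target, had a CPM of 22.1, 22.4, 16.9, 19.2, and 20.8 in vehicle-treated and of 36.5, 38.3, 33.6, 32.1, and 29.6 in cisplatin-treated mice. In co-treated mice it ran from 17.0 through a median of 18.8 to 23.1, and in KW6002-treated mice from 14.6 through 20.1 to 21.5. Cisplatin-treated mice stood apart from the other 3 groups, which overlapped. Egln3 rose with cisplatin (0.75, SE 0.10, adjusted p = 1.1e-06) and was lower with co-treatment than with cisplatin (-0.79, SE 0.10, adjusted p = 5.1e-07). Between co-treated and vehicle-treated mice the difference was -0.04 (95% interval -0.25 to 0.16, adjusted p = 0.719). Egln2, their paralog, did not pass the test with cisplatin (-0.05, adjusted p = 0.241) and was higher with co-treatment than with cisplatin (0.19, adjusted p = 0.000101).

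Vegfa, the main growth factor for the endothelium and made in the kidney by podocytes and tubule cells, had a CPM of 435.5, 397.3, 375.6, 375.2, and 396.7 in vehicle-treated and of 141.4, 162.1, 152.8, 154.2, and 181.7 in cisplatin-treated mice. The lowest, median, and highest CPM were 187.4, 208, and 234.6 in co-treated and 329.3, 356.5, and 397.2 in KW6002-treated mice. Every co-treated mouse lay above every cisplatin-treated mouse and far below every vehicle-treated mouse. Vegfa fell by 1.32 on the log2 scale with cisplatin, to a level 2.5-fold lower (SE 0.07, adjusted p = 2.2e-13), was higher with co-treatment than with cisplatin (0.40, SE 0.07, adjusted p = 3.0e-05), and stayed below vehicle (-0.92, SE 0.07, adjusted p = 1.5e-10). The podocyte markers, 5 genes summed, were at 474.8 to 584.2 CPM in vehicle-treated, 477.7 to 518.7 in cisplatin-treated, and 448.8 to 514.2 in co-treated mice. The 8 proximal tubule markers were at 34340 to 38980, 2416 to 4193, and 7205 to 12540 CPM, and the 4 markers of the thick ascending limb at 4563 to 7646, 1984 to 2300, and 2331 to 4198 CPM. Kap, the most abundant of the 8 with vehicle, had means of 19920, 581.7, and 1021 CPM with vehicle, cisplatin, and co-treatment, whereas Aqp1 had 1353, 753.1, and 1450. With cisplatin 8 of 8 and 4 of 4 of these tubule markers fell, with log2 fold changes from -5.10 to -0.84 among the 8. Between co-treated and vehicle-treated mice 7 of the 8 proximal tubule markers were lower and 1 did not pass, from -4.285 to 0.10 (list median -1.07). Of the 4 markers of the thick ascending limb only Umod, the most abundant, was lower in that comparison (means of 1819 and 4532 CPM), and 3 did not pass (list median -0.15). The part of tubule cells in the Vegfa values was not tested.

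Among the partners of VEGF and EPO, 5 of 10 genes rose and 2 fell with cisplatin (median log2 fold change 0.39, all genes -0.01). In co-treated mice 1 was higher and 6 were lower than in cisplatin-treated mice (median -0.49, all genes 0.01). Of all tested genes 34.6% rose and 35.9% fell in the former comparison, and 28.6% were higher and 27.2% lower in the latter. Flt1, the VEGF receptor 1 gene, rose from 109 ± 11.9 to 210.2 ± 31.9 CPM (SD, n = 5 each) with cisplatin (0.95, SE 0.10, adjusted p = 9.3e-09), whereas Kdr, the main signalling receptor of VEGF, fell from 120.1 ± 5.15 to 81.2 ± 6.62 CPM (-0.56, SE 0.05, adjusted p = 2.3e-09). With co-treatment Flt1 was lower than with cisplatin (-0.65, adjusted p = 3.0e-06), and the difference in Kdr did not pass the test (-0.03, adjusted p = 0.644). Vegfb, a VEGF paralog, fell with cisplatin (-0.64, adjusted p = 3.1e-08) and was higher with co-treatment (0.58, adjusted p = 2.2e-07). Flt1, Kdr, and Vegfb were chosen after their values were seen. Pgf, the placental growth factor gene that binds the FLT1 receptor, had group means from 0.565 to 0.994 CPM, and its KW6002 effect with cisplatin differed from that without cisplatin by -1.09 on the log2 scale. Epor, the erythropoietin receptor gene, rose from 3.47 ± 0.479 to 8.92 ± 2.66 CPM (1.36, SE 0.17, adjusted p = 2.9e-07) and was lower with co-treatment than with cisplatin, at 5.84 ± 0.809 CPM (n = 6; -0.61, SE 0.16, adjusted p = 0.00229).

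Epo, the gene of the hormone that drives red cell production, was at 41, 31, 12, 29, and 32 counts in the vehicle-treated mice and at 0, 0, 0, 1, and 0 counts in the cisplatin-treated mice. KW6002-treated mice had 16, 38, 25, 49, 41, and 19 counts, and co-treated mice 0, 1, 2, 0, 0, and 1. Cisplatin-treated kidneys were thus nearly without Epo reads whether or not KW6002 was given, and none of them overlapped the mice not given cisplatin. Summed over the group and scaled to depth, the vehicle level was 162 times that with cisplatin (95% exact counting interval 28.6 to 6430) and 44.2 times that with co-treatment (16.9 to 165). The ratio of the co-treated to the cisplatin-treated level was 3.66, with an interval from 0.362 to 180, so that 4 counts against 1 do not show a difference at this depth. The fitted log2 fold changes depend on the prior count and are not given, and co-treatment against cisplatin did not pass (adjusted p = 0.357). These intervals cover counting error only. An exon of Epo overlaps one of Gnb2 on the same strand, and reads on both are counted for neither gene.

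Markers of interstitial fibroblasts and of red cells were measured beside Epo. The 6 interstitial fibroblast markers (Pdgfra, Pdgfrb, Nt5e, Dcn, Col1a1, and Col3a1), summed, were at 260.7 to 420.7 CPM in vehicle-treated, 869.3 to 1069 in cisplatin-treated, and 412.8 to 672.4 in co-treated mice, and 6 of 6 rose with cisplatin. The 5 red cell markers, globin genes and Alas2, were at 65.9 to 407.6 CPM with vehicle and 73.7 to 352.1 with KW6002, but at 0.0266 to 0.201 with cisplatin and 0.32 to 0.655 with co-treatment. Of these genes 5 of 5 were lower in both cisplatin-treated groups than in vehicle, and none was at 0 in every library of a group. How the Epo values relate to these markers was not tested.

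**Figure D2:**
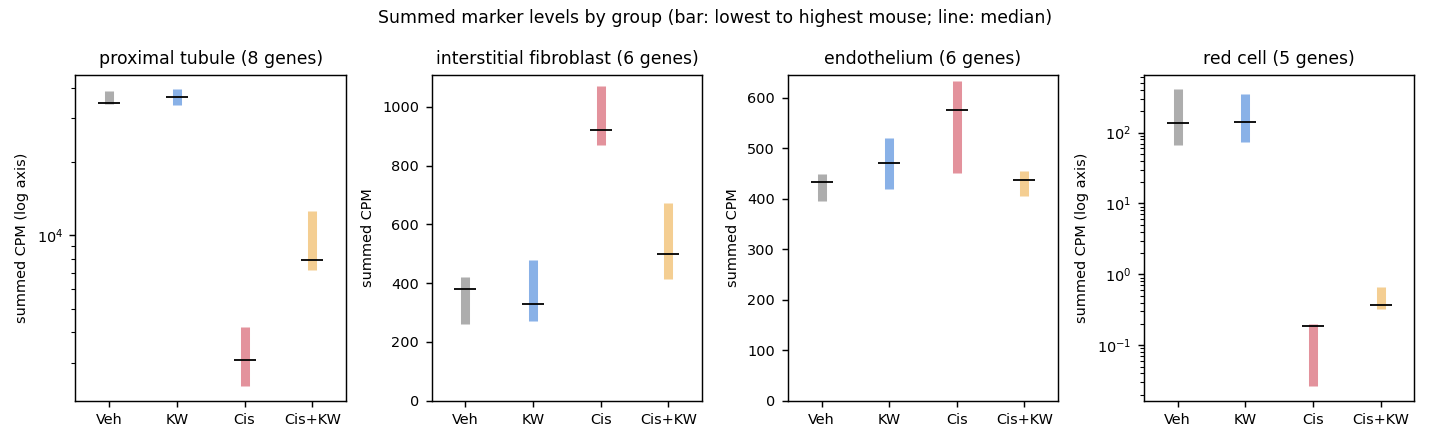
Summed CPM of the markers of proximal tubule, interstitial fibroblast, endothelium, and red cell (y axis, logarithmic for proximal tubule and red cell) by group (Veh, vehicle; KW, KW6002; Cis, cisplatin; Cis+KW, cisplatin plus KW6002), with bars from the lowest to the highest mouse and a line at the median. The fibroblast sum with cisplatin, 869.3 to 1069 CPM, stood above all other groups, while the red cell sum was under 1 CPM in both groups given cisplatin.

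Car9 encodes a cell-surface carbonic anhydrase that is a common marker of HIF-1 activity in tumors. Its CPM was 16.2, 21.1, 24.99, 16.4, and 13.2 in vehicle-treated and 2.69, 4.57, 4.10, 3.21, and 3.96 in cisplatin-treated mice. Co-treated mice had 2.72 at lowest, 4.40 at the median, and 8.68 at highest, and KW6002-treated mice 11.8, 20.9, and 25.5. The groups given cisplatin overlapped each other and lay wholly below those not given it. Car9 fell by 2.31 on the log2 scale with cisplatin, a 4.95-fold lower level (SE 0.25, adjusted p = 2.5e-08), and was lower with co-treatment than with vehicle (-1.84, SE 0.23, adjusted p = 4.9e-07). Between co-treatment and cisplatin the difference was 0.46 (95% interval -0.05 to 0.97, adjusted p = 0.114), and without co-treated replicate 4, the lowest of its group, it was 0.59 and passed (adjusted p = 0.036). Without co-treated replicate 6, the highest of its group, it was 0.24 (adjusted p = 0.39). Exons of Car9 overlap those of the antisense gene Gm12454.

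Other carbonic anhydrases were measured beside Car9. Car4, a membrane enzyme of the proximal tubule, fell by 3.78 on the log2 scale with cisplatin (SE 0.17, adjusted p = 1.0e-14) and was higher with co-treatment than with cisplatin (2.79, SE 0.16, adjusted p = 7.4e-12). Car14 fell by 3.06 (SE 0.24, adjusted p = 1.2e-10) and Car12 by 1.33 (SE 0.08, adjusted p = 2.4e-12), and these were higher with co-treatment than with cisplatin by 1.26 and 0.35. Car2, a cytosolic enzyme, did not pass in either comparison (0.09 and -0.08).

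Ankrd37, a small HIF-induced ankyrin repeat gene, was weakly expressed. It was at 32, 25, 48, 31, and 45 counts (1.04, 1.00, 1.61, 1.09, and 1.46 CPM) in vehicle-treated and at 19, 11, 9, 20, and 8 counts (0.506, 0.276, 0.24, 0.535, and 0.226 CPM) in cisplatin-treated mice. Co-treated mice had 1.06 CPM at lowest, 1.24 at the median, and 1.44 at highest, and KW6002-treated mice 0.729, 1.32, and 1.58. Co-treated mice lay within the range of vehicle, and every cisplatin-treated mouse lay below all others. Ankrd37 fell by 1.79 on the log2 scale with cisplatin (SE 0.25, adjusted p = 9.2e-07) and was higher with co-treatment than with cisplatin (1.80, SE 0.24, adjusted p = 1.1e-06). The difference from vehicle with co-treatment was 0.01, with a 95% interval from -0.43 to 0.45. Its exons overlap those of Ufsp2 and Lrp2bp on the other strand.

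Pfkfb3, an enzyme that speeds glycolysis by raising fructose 2,6-bisphosphate, had a CPM of 55.4, 79.0, 43.0, 65.5, and 41.4 in vehicle-treated and of 93.8, 96.9, 117.2, 114.8, and 97.5 in cisplatin-treated mice. The lowest, median, and highest CPM were 45.5, 50.4, and 70.8 in co-treated and 31.9, 46.6, and 55.8 in KW6002-treated mice. Vehicle-treated mice varied widely, but none reached a cisplatin-treated mouse. Pfkfb3 rose with cisplatin (0.87, SE 0.16, adjusted p = 4.4e-05) and was lower with co-treatment than with cisplatin (-0.94, SE 0.15, adjusted p = 1.7e-05). Between co-treated and vehicle-treated mice the difference was -0.07 (95% interval -0.39 to 0.25), and its sign turned with the scaling. The 6 fat markers, summed, were at 153.7 to 1380 CPM in vehicle-treated, 413.2 to 823.5 in cisplatin-treated, and 40.8 to 374.1 in co-treated mice, and 5 of 6 were lower in co-treated than in cisplatin-treated mice. With the mean log2 CPM of these markers as a covariate, an alternative chosen after seeing the data, the rise of Pfkfb3 with cisplatin was 0.84 (adjusted p = 2.7e-06) and the difference between co-treatment and cisplatin was -0.52 (adjusted p = 0.01). Among its paralogs, Pfkfb4 rose with cisplatin (0.36, adjusted p = 0.00371), Pfkfb2 fell (-0.33, adjusted p = 0.00103), and Pfkfb1 did not pass (0.37, adjusted p = 0.265).

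Bnip3 had a CPM of 54.6, 56.8, 55.0, 43.9, and 43.9 in vehicle-treated and of 76.7, 115.4, 98.1, 101.2, and 92.7 in cisplatin-treated mice. Co-treated mice ran from 58.2 through a median of 63.6 to 88.3, and KW6002-treated mice from 47.2 through 55.6 to 60.6. One co-treated mouse, replicate 3, lay above the lowest cisplatin-treated mouse, and all co-treated mice lay above all vehicle-treated mice. Bnip3 rose with cisplatin (0.93, SE 0.11, adjusted p = 1.7e-07), was lower with co-treatment than with cisplatin (-0.53, SE 0.11, adjusted p = 0.00023), and remained above vehicle (0.40, SE 0.11, adjusted p = 0.0034). Its paralog Bnip3l, another mitophagy receptor, fell with cisplatin (-0.48, SE 0.05, adjusted p = 2.6e-08). Exons of Bnip3 overlap those of the antisense gene Gm45507.

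In cisplatin plus KW6002 against cisplatin, 3 of the 10 genes were higher (Vegfa, Egln1, and Ankrd37), 5 lower (Hif1a, Epas1, Egln3, Pfkfb3, and Bnip3), and 2 did not pass (Epo and Car9), where 28.6% of all tested genes were higher and 27.2% lower. Under the stricter rule 1 gene, Ankrd37, was higher and 0 were lower, beside 4.65% and 5.66% of all genes. The CPM of these groups did not overlap for 7 of the 10 genes and for 37.8% of all tested genes. This comparison and that of cisplatin with vehicle share the cisplatin-treated mice.

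Against vehicle, co-treated mice differed in 6 of the 10 genes, with Hif1a and Bnip3 higher and Vegfa, Egln1, Car9, and Epo lower, where 29.8% of all genes were higher and 29.9% lower. Without Epo, 5 of 9 differed. Under the stricter rule 2 were lower (Car9 and Epo) and 0 higher, beside 7.59% and 5.83% of all genes. The 4 others were Epas1, Egln3, Pfkfb3, and Ankrd37, whose co-treated values lay within or near the vehicle range. For those genes the 95% intervals reached at most 0.45 from 0 on the log2 scale.

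KW6002 alone gave log2 fold changes from -0.29 (Pfkfb3) to 0.18 (Hif1a) in the 10 genes. In edgeR 0 of 10 passed, with 2 (Hif1a and Vegfa) at an unadjusted p below 0.05, and in DESeq2 0 passed. The value of Pfkfb3 was -0.15 without vehicle replicate 2, -0.036 within the mice whose label numbers lay in the 500s, and -0.11 with the fat markers as a covariate. Of all tested genes 0.0175% were higher and 0% lower, and 1930 of 17131 had an unadjusted p below 0.05. The intervals were narrow for Egln1 (-0.13 to 0.03) and wide for Epo (-0.63 to 0.75) and Car9 (-0.31 to 0.61).

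The KW6002 effect with cisplatin was also tested against that without it, as an interaction in the same fit. The difference passed for 8 of the 10 genes, in 3 upward (Ankrd37 1.78, Vegfa 0.55, and Egln1 0.52) and in 5 downward (Egln3 -0.74, Bnip3 -0.65, Pfkfb3 -0.65, Epas1 -0.52, and Hif1a -0.46), where 22.8% of all genes passed upward and 19.9% downward. Under the stricter rule Ankrd37 passed upward and 0 downward, beside 4.24% and 4.33% of all genes. Adjusted p-values ran from 1.6e-07 for Egln1 to 0.0192 for Pfkfb3, and with the fat markers as a covariate Pfkfb3 was at -0.42 and did not pass (adjusted p = 0.0659). Epo (adjusted p = 0.42) and Car9 (adjusted p = 0.468) did not pass.

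**Figure D3:**
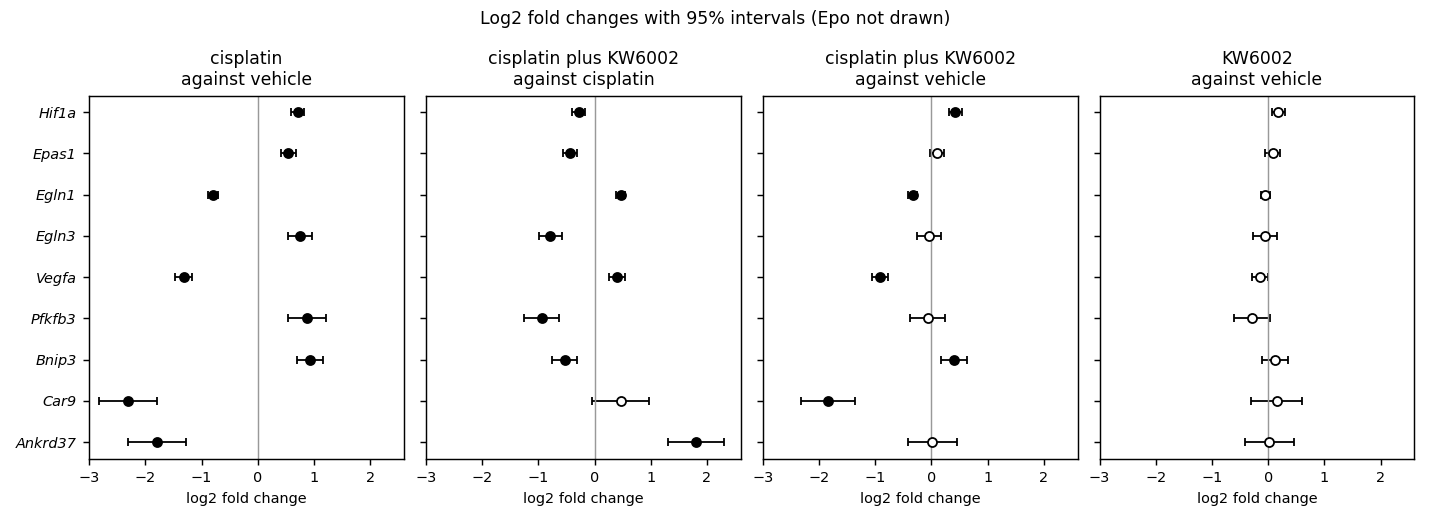
Log2 fold changes (x axis) of 9 of the genes, Epo left out, in 4 comparisons, with 95% intervals as bars and filled points for an adjusted p below 0.05. Car9 has the lowest point for cisplatin against vehicle, at -2.31, Ankrd37 has the highest for cisplatin plus KW6002 against cisplatin, at 1.80, and no point of KW6002 against vehicle is filled.

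The mice carried label numbers in the 300s (vehicle and KW6002 replicates 1 to 3) or the 500s (all others), and the labels do not say what the series mark. The only vehicle-treated mice of the 500s were replicates 4 and 5. Within the mice of the 500s, 10 of 10 genes passed in cisplatin against vehicle in the same direction, with Car9 at -2.0 and Bnip3 at 1.14. In cisplatin plus KW6002 against cisplatin 8 of 10 passed. All mice of these groups were in the 500s, so the restriction left none of them out and this count is no separate check. The 10 include Epo, which in the fit of all mice was tested only through the groups in which it was high. In that fit 34.6% of all tested genes were higher and 35.9% lower in the former comparison, and 28.6% and 27.2% in the latter. The shares of all genes within the 500s are not given here, so these counts do not set the 10 genes apart from other genes. The 300s held no cisplatin-treated mouse.

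Apart from Hif3a, the regulators of HIF differed little with cisplatin, with log2 fold changes from -0.47 to 0.46. Of 12 regulators, 2 rose and 3 fell with cisplatin (median -0.02, all genes -0.01), where 34.6% of all tested genes rose and 35.9% fell. In co-treated against cisplatin-treated mice 5 were higher and 2 lower, beside 28.6% and 27.2% of all genes. Hif3a, whose products include inhibitors of HIF, was at 2.71 ± 1.67 CPM (SD, n = 5) with vehicle, 5.51 ± 3.08 (n = 6) with KW6002, 11.7 ± 1.64 (n = 5) with cisplatin, and 10.97 ± 1.71 (n = 6) with co-treatment. It rose with cisplatin (2.10, SE 0.40, adjusted p = 6.0e-05) and did not pass between co-treatment and cisplatin (-0.09, adjusted p = 0.834). Cul2, the scaffold of the VHL ligase, fell with cisplatin (-0.47, adjusted p = 1.4e-09), as did Hif1an, which hydroxylates an asparagine of the alpha subunit (-0.28, adjusted p = 2.4e-05), and both were named after their values were seen. Arnt and Vhl did not pass with cisplatin.

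Other known HIF targets moved in both directions. Of 45 such genes, 20 rose and 11 fell with cisplatin, with a median log2 fold change of 0.16 beside -0.01 for all genes, and with libraries scaled by total counts only the split was 27 to 7. Of all tested genes 34.6% rose and 35.9% fell. Of the 18 glycolytic ones, 6 rose and 6 fell (median 0.07), and of the 27 others, 14 rose and 5 fell (median 0.22). Under the stricter rule 8 of the 45 rose and 2 fell, beside 12.1% each way. With co-treatment against cisplatin 14 of the 45 were higher and 18 lower (median -0.06), or 12 and 21 when scaled by total counts, and against vehicle 18 were higher and 10 lower (24 and 5). All tested genes gave 28.6% and 27.2% in the former comparison and 29.8% and 29.9% in the latter. With KW6002 alone 0 of the 45 passed in edgeR, with 8 at an unadjusted p below 0.05, and 0 passed in DESeq2. Counts of Gapdh, Pgk1, and Pgam1 are uncertain, since these genes have many near-identical pseudogene copies and only uniquely aligned reads were kept.

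Targets with large rises after cisplatin included genes of secreted proteins and a stress regulator. Lox, which crosslinks collagen, went from 6.33 ± 1.95 to 69.3 ± 15.3 CPM (SD, n = 5 each; log2 fold change 3.45, SE 0.30, adjusted p = 6.2e-10). It was far lower in co-treated than in cisplatin-treated mice, by 2.39 on the log2 scale, at 13.3 ± 5.18 CPM (n = 6; adjusted p = 8.8e-08). Ddit4, an inhibitor of mTORC1 that DNA damage also induces, rose by 3.05 with cisplatin (adjusted p = 1.0e-12), and Edn1, the endothelin-1 gene, by 2.67 (adjusted p = 1.5e-13). In co-treated mice Ddit4 and Edn1 were below cisplatin by 0.81 and 0.54 and remained 2.24 and 2.13 above vehicle. Adm, the adrenomedullin gene, was lower by 1.86 with co-treatment than with cisplatin (adjusted p = 1.4e-10).

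The largest falls among the targets with cisplatin were smaller. Car12 is described above, and Tpi1, the triosephosphate isomerase gene, went from 529.7 ± 29.7 to 262.9 ± 33.3 CPM (-1.01, SE 0.08, adjusted p = 1.7e-10). Pfkl, the liver form of phosphofructokinase, fell by 0.53 on the log2 scale (adjusted p = 1.3e-08), and Bnip3l followed. The genes that were higher by most with co-treatment than with cisplatin were Aldoc, an aldolase gene (1.03, adjusted p = 0.00122), Ndrg1, a differentiation-related stress gene (0.88, adjusted p = 0.0025), and Tpi1 (0.73, adjusted p = 6.2e-08). Aldoc and Ndrg1 had not passed with cisplatin itself.

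**Figure D4:**
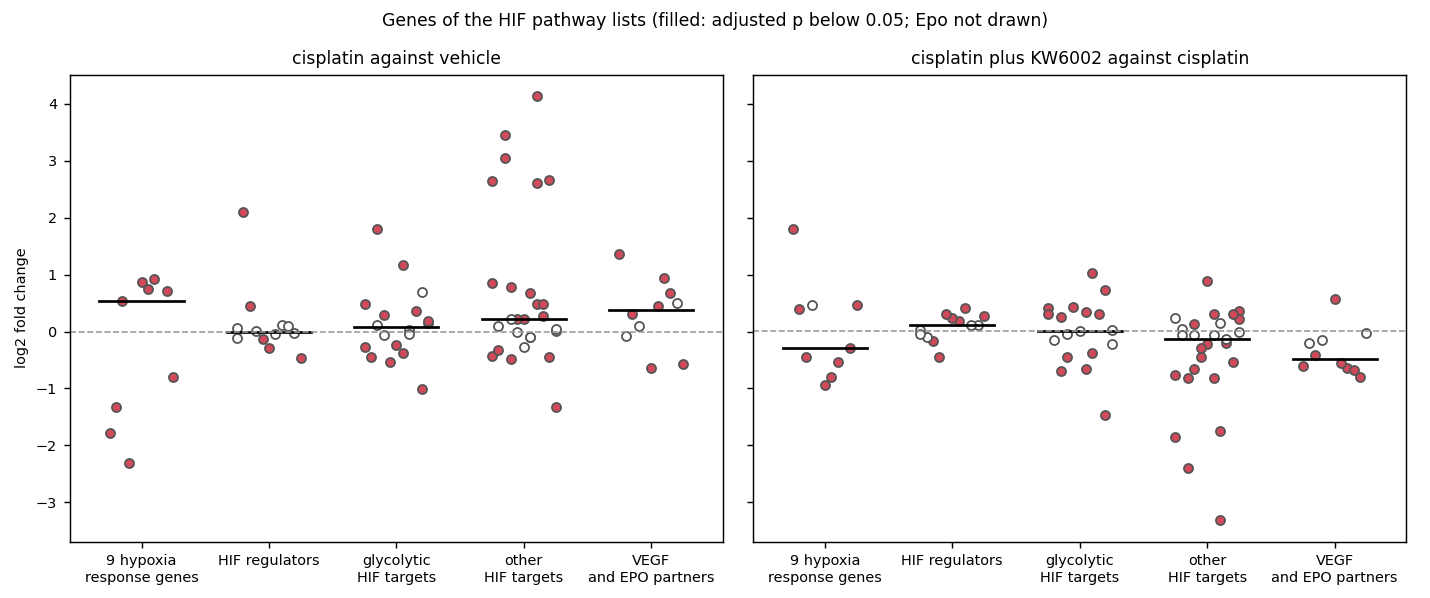
Log2 fold changes (y axis) of the genes of 5 lists, with Epo not drawn, for cisplatin against vehicle (left) and cisplatin plus KW6002 against cisplatin (right). Filled points passed at an adjusted p below 0.05, solid lines are list medians over the genes drawn, and the dashed line is the median of all genes. Lox lies at 3.45 on the left and at -2.39 on the right.

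The genes with the profile most like a hypoxia response gene were sought for the 3 genes whose group means varied most: Epo, Car9, and Ankrd37. Likeness was Pearson's r of log2 CPM over the 22 libraries, which shares the group differences among all genes, and it is given as a description, together with r after the group means were removed. For Epo the nearest were Klhl3 (r 0.972, then 0.445), Tmem26 (0.971, then 0.453), and Wwox (0.969, then 0.283). For Car9 they were Acad10 (0.972, then 0.736), D630029K05Rik (0.97, then 0.7), and Cryzl2 (0.967, then 0.727). For Ankrd37 they were Tsc2 (0.944, then 0.665), Arfgap1 (0.935, then 0.559), and Rab28 (0.934, then 0.589). The nearest genes were picked by r over all libraries, so a lower r with group means removed comes with that choice and is not particular to Epo. In the mice given cisplatin Epo had only 0 to 2 counts, which limits its r within groups.

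Proximal tubule, thick ascending limb, podocyte, and endothelial markers, as the label of kidney requires, were present in every group. The 6 macrophage markers, summed, were at 140.1 to 242 CPM with vehicle, 205.5 to 248.1 with cisplatin, and 105.2 to 151.3 with co-treatment, and 2 of them rose and 2 fell with cisplatin.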

How the data were processed

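RNA-Seq counts of 22 kidneys, 1 library per mouse, were used as deposited. The authors prepared stranded mRNA libraries, mapped reads to mm10 with STAR, kept unique alignments, and counted reads per Ensembl gene with HTSeq 0.6.1p1 in union mode. The deposited values are raw counts, not normalized. Whether strand was used in counting is not given in the sources used here, so reads of genes that overlap on opposite strands cannot be told apart. The table has 66 further columns without name or value, which were not used. Symbols, exon lengths, and overlaps came from GENCODE M21 (32824 IDs matched, 34 did not).

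Genes were kept by filterByExpr (10 counts at the median library size, in at least 5 libraries, and 15 in all), leaving 17131 and removing 15727. Counts were fitted with edgeR 4.0.16 in R 4.3.3 (TMM, 1 mean per group, no covariate, quasi-likelihood tests, Benjamini-Hochberg adjustment). The biological coefficient of variation was 0.129. DESeq2 1.42.0 was an alternative. Other alternatives were relative log expression factors, total counts only, no filter, 10 counts in every library, only the groups compared, a replicate block, the label series, only the mice of the 500s, the fat markers as a covariate, the stricter rule of the study, and each library left out. The steps were tested on simulated data. No libraries were duplicates.

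All 10 genes are named. So are HIF regulators and VEGF and EPO partners beyond a log2 fold change of 1, the HIF targets with the largest changes (4 each way for cisplatin, 3 each way for co-treatment against cisplatin), paralogs, and the 3 most similar genes of 3 genes. A gene that this rule includes is not reported here. Genes and lists were chosen with earlier results of these data known.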

Additional observations from a re-analysis of the deposited data

Results flagged for a closer look

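One mouse stood far from the rest of its group in 2 of 38 comparisons of a hypoxia response gene within a group, where chance gives about 1 in 20. They were Egln3 in KW6002 replicate 6 (14.55 CPM, the lowest of its group) and Bnip3 in co-treated replicate 3 (88.32 CPM, the highest of its group). Without that co-treated mouse the log2 fold change of Bnip3 between co-treatment and cisplatin was -0.63.

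The effect of KW6002 differed between mice given and not given cisplatin, by the interaction test in edgeR, for 8 of the 10 genes. Of all tested genes 22.8% passed this test upward and 19.9% downward. With the fat markers as a covariate Pfkfb3 was at -0.42 and did not pass (adjusted p = 0.0659). The log2 differences without a covariate were 1.78 for Ankrd37, 0.55 for Vegfa, 0.52 for Egln1, -0.46 for Hif1a, -0.52 for Epas1, -0.65 for Pfkfb3, -0.65 for Bnip3, and -0.74 for Egln3.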

How the results depend on the processing

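At an adjusted p below 0.05, all 10 genes passed in cisplatin against vehicle, in the same direction, under the alternatives that tested them all. These included each library left out, and 4 genes passed the study's stricter rule. Epo is in both counts, and in the main fit it was tested only through the groups in which it was high. In that fit 34.6% of all tested genes were higher and 35.9% lower, and the shares under the alternatives are not given here. A filter of 10 counts in every library leaves out Epo and Ankrd37 and gave 8 of 8. Under the study's stricter rule, cisplatin against vehicle gave 4 of the 10 genes and 10 of the 45 HIF targets. Co-treatment against cisplatin gave 1 and 6, co-treatment against vehicle 2 and 5, and the interaction 1 of the 10. Of all tested genes, 12.1% were higher and 12.1% lower under this rule in cisplatin against vehicle. The shares were 4.65% and 5.66% in co-treatment against cisplatin and 5.83% and 7.59% in co-treatment against vehicle. In the interaction they were 4.24% and 4.33%. With total counts only, Epas1 passed in co-treatment against vehicle (0.25), Egln3 turned to 0.11, and Pfkfb3 to 0.090. With the fat markers as a covariate Pfkfb3 turned to 0.31 and Ankrd37 to -0.17 in co-treatment against vehicle, Ankrd37 turned to -0.066 in KW6002 against vehicle, and Pfkfb3 no longer passed the interaction (-0.42). The cause was not tested.

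The signs that turned otherwise belong to small differences that did not pass. In KW6002 against vehicle, Epas1 turned to -0.067 within the 500s, and with the label series Epo turned to -0.018 and Ankrd37 to -0.0028. In co-treatment against vehicle, Ankrd37 turned to -0.11 with the label series and -0.031 within the 500s, and Pfkfb3 to 0.019 within the 500s. With each library left out, KW6002 against vehicle ran from -0.17 to 0.22 for Epo, -0.11 to 0.014 for Egln3, and -0.051 to 0.14 for Ankrd37, and co-treatment against vehicle from -0.053 to 0.12 for Ankrd37 and -0.16 to 0.078 for Pfkfb3 (0.078 without vehicle replicate 2). Correlations between same-numbered replicates ran from -0.175 to 0.405, and 4 of 20 were over 0.1, all among the 5 pairs of vehicle with KW6002. Differently numbered pairs were not compared, so whether vehicle and KW6002 replicates pair is not settled. With the replicate block 10, 8, 0, 6, and 8 of the 10 genes passed, the counts without it. These are for cisplatin against vehicle, co-treatment against cisplatin, KW6002 against vehicle, co-treatment against vehicle, and the interaction, in that order. The shares of all genes with the block are not given here. Depth limits Epo most, at 0 to 2 counts per mouse after cisplatin.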
